A study of Homo sapiens with 12 samples.

Results

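The 43 genes described here encode the SR proteins, their TRA2 relatives, the hnRNPs, the PTB proteins and a few similar splicing regulators, and they were chosen by name, as the rows of a gene table whose Ensembl IDs carry the listed symbols. They are 43 of the 63541 gene IDs in the table, and all 43 were among the 21999 genes with enough counts to be tested. The RNA came from HEK293T, a human embryonic kidney line that carries the SV40 large T antigen, collected 48 h after transfection with 12.5 nM siRNA. There were 12 libraries in 4 groups of 3 replicates, namely a scramble siRNA and 3 different siRNAs that target snaR-A, which is a small noncoding transcript of RNA polymerase III. The latter are named si-snaR-A#1, #2 and #3 and are called siRNA #1, siRNA #2 and siRNA #3 here. The question was how levels of these regulators differ once snaR-A is targeted. All groups share 1 cell line and 1 time point, and the 3 siRNAs were compared with the same scramble libraries, so their comparisons are not independent. snaR-A itself was not analysed here, so the degree of depletion behind each group is not given. For a change seen with 1 siRNA, loss of snaR-A and an effect of that siRNA's own sequence cannot be told apart. The 3 siRNAs overlap in sequence and all target the 3′ part of snaR-A. For a change that they share, loss of snaR-A and an effect of the shared sequence cannot be told apart either.

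SR proteins bind exonic enhancers through RNA recognition motifs and, through arginine- and serine-rich tails, help the spliceosome define an exon, while hnRNPs and PTB proteins bind nascent RNA and often block exon use. RBFOX, CELF, MBNL and QKI proteins promote or repress exons according to where they bind. Many of these genes control their own level, or that of a close relative, by splicing that leads to a transcript degraded by nonsense-mediated decay (NMD), so their mRNA levels are often linked within families.

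3 exons are shown because a PTB or MBNL protein is known to act on each, in a gene that moved here, as reference sequence only, since counts summed over a gene do not tell whether an exon was used. The first is the 34-base exon of PTBP2 at chr1:96806419-96806452 (hg38, + strand), whose skipping in the presence of PTBP1 shifts the reading frame. The others are the 54-base exons of MBNL1 at chr3:152446704-152446757 and MBNL2 at chr13:97356796-97356849 (both hg38, + strand), exons on which MBNL proteins act in their own transcripts. Their length keeps the reading frame, so they are not exons that lead to NMD. Exon bases are in capitals and the 60 flanking bases on each side in lower case, 5′ to 3′.

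PTBP2: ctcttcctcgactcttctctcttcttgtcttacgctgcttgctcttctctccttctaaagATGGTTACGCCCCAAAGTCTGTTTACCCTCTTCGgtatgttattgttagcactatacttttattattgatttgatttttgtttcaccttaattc
MBNL1: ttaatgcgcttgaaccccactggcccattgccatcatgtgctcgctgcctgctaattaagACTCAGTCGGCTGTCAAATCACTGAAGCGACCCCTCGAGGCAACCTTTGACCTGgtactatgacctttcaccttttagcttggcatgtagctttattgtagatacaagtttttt
MBNL2: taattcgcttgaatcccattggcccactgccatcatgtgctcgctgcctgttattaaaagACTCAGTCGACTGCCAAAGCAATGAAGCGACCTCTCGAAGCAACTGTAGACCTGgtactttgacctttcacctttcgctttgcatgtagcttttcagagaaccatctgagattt

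The PTBP2 and MBNL2 exons are part of the Ensembl canonical transcript in GENCODE release 44, and the MBNL1 exon is an annotated alternative. The 60 bases before the PTBP2 exon hold 6 copies of TCTT and 1 of CTCTCT, pyrimidine words of the kind PTB proteins bind, searched on the transcript strand only and counted with overlaps, also between the 2 words. The background was 157289 internal coding exons of the canonical transcripts of protein-coding genes, a set that does not hold the MBNL1 exon. Of these, 4.41% have 3 or more TCTT in that window, 51.9% have 1 or more, and 7.39% have CTCTCT. The MBNL1 and MBNL2 exons match at 45 of 54 positions, and TGCT, a word of the kind MBNL proteins bind, occurs 2 times and 1 time in the 60 bases before them, against 31.2% of the background exons with 1 or more. A match is a description of these letters and not a measured binding site.

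Library totals were between 120.4 and 180.1 M estimated counts. The label calls the cells epithelial. CPM are counts scaled to a common library total after TMM normalization, per 1e6 counts. For the markers in this paragraph they are per 1e6 counts of the library, without TMM normalization. Of 5 epithelial markers, KRT19 was at 0 to 0.021 CPM and EPCAM did not exceed 2.31 CPM. KRT18 lay between 27.0 and 35.7 CPM, CDH1 between 6.32 and 11.1 CPM and KRT8 between 6.73 and 9.16 CPM. Of 5 neural and mesenchymal markers, the neurofilament gene NEFM lay between 246 and 448 CPM and VIM between 504 and 745 CPM. NEFL lay between 145 and 226 CPM, CDH2 between 93.4 and 155 CPM and PAX2 between 4.43 and 7.82 CPM. Of 7 markers of blood, fibroblasts, endothelium and liver, CD3E and CDH5 stayed under 0.1 CPM in all libraries, and the summed level of the 7 was 25.3 to 28.6 CPM in scramble, 24.1 to 25.4 CPM with siRNA #1, 19.0 to 21.7 CPM with siRNA #2 and 13.1 to 14.1 CPM with siRNA #3, nearly all of it COL1A1. The summed level of the 5 neural and mesenchymal markers was 1094 to 1180 CPM in scramble, 1049 to 1148 CPM with siRNA #1, 1510 to 1541 CPM with siRNA #2 and 1246 to 1303 CPM with siRNA #3. The part of these shifts in the results was not tested. In bulk RNA, fewer cells of a kind and less RNA per cell cannot be told apart.

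Together the members summed to 1.82% to 1.88% of the TMM-scaled library size in scramble and 1.63% to 1.74% with siRNA #1. The sum was 1.88% to 1.95% with siRNA #2 and 1.98% to 2.02% with siRNA #3. After TMM scaling the siRNA #1 libraries lay below all others and the siRNA #3 libraries above all others. Shares of the unscaled counts are not given. Levels of different genes were compared as CPM per kb of canonical transcript. On this scale the highest members in scramble were HNRNPA1, an hnRNP that blocks exons and shuttles to the cytoplasm, at 868 ± 34.6 (SD, n = 3), its relative HNRNPA2B1 at 624 ± 23.4 and the poly(C)-binding HNRNPK at 361 ± 9.73. The lowest were HNRNPR at 0.347 ± 0.0330, MBNL2 at 8.95 ± 0.0438 and SRSF8 at 9.02 ± 0.429. All members but HNRNPA1 and HNRNPR stood within a factor of 10 of the median of 85.2. Of the 42 pairs of neighbors in this order, 19 overlapped in their replicates and so did not differ beyond their spread, MBNL2 and SRSF8 among them. The order depends on the length used. Per kb of all annotated exons of a gene, HNRNPAB ranked 2 and HNRNPA2B1 4. On that scale SRSF8 ranked 38, MBNL2 40, MBNL1 41 and PTBP2 42. The level of HNRNPR is uncertain, since the table also holds 5381 gene IDs outside GENCODE release 44, with 2.69% to 2.90% of the counts, that are not paired with names here.

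**Figure D1:**
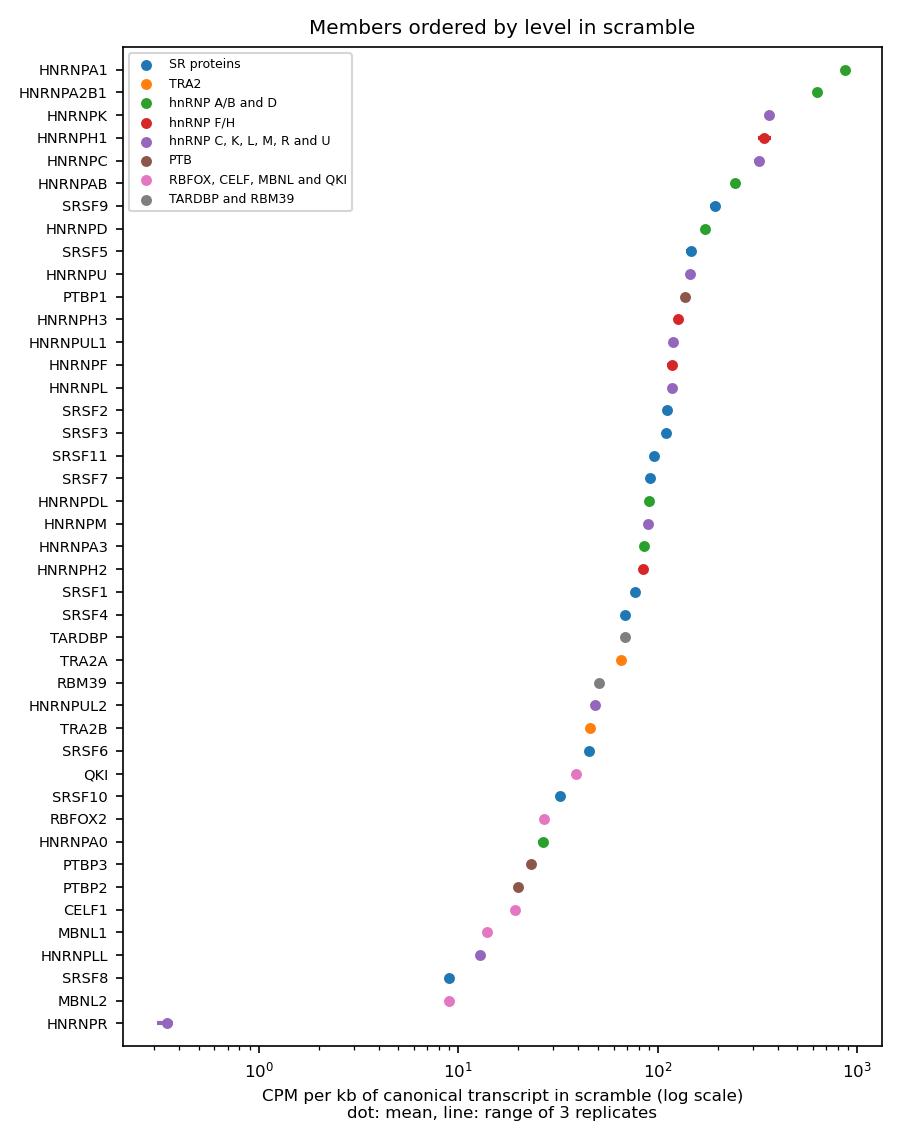
Level of each of the 43 members in the scramble libraries, as CPM per kb of canonical transcript on a log scale. Dots are means and lines the range of 3 replicates, colored by family, with HNRNPA1 at 868 at the top and HNRNPR at 0.347 at the bottom.

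With siRNA #1, 30 of the 43 members passed edgeR's quasi-likelihood test at a Benjamini-Hochberg adjusted p under 0.05, where 45.2% of all genes tested did, and 64.4% of the 8181 genes that averaged 20 CPM or more, a level that 42 of the members reached. 22 of the 43 were called lower, against 23.3% of all genes tested, and 8 of the 43 higher, against 21.9%. The median log2 fold change of the members was -0.15, against -0.02 for all genes tested, and 5 members, PTBP3, PTBP2, SRSF11, MBNL2 and SRSF9, fell by more than 1.5-fold. None rose by more than 1.5-fold. With siRNA #2, 15 members passed, where 25.8% of all genes and 41.3% of those at 20 CPM or more did. 10 were higher, against a background of 13.7%, and 5 lower, against 12.1%, with a median of 0.00. With siRNA #3, 20 members passed, against 29.4% and 48.5%. Here 16 were higher, against 16.5%, and 4 lower, against 13.0%, with a median of 0.08. The shares of members called were near those of genes at like levels. Shares by direction and by pattern, here and below, are over all genes tested. Fewer of those were called than of the genes at 20 CPM or more, so they are not shares at like levels. The calls were mostly lower with siRNA #1 and mostly higher with siRNA #3. With upper quartile scaling the split was 10 higher and 9 lower with siRNA #2 and 12 and 6 with siRNA #3, and with a trend on GC content and length removed it was 13 and 8 with siRNA #3.

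**Figure D2:**
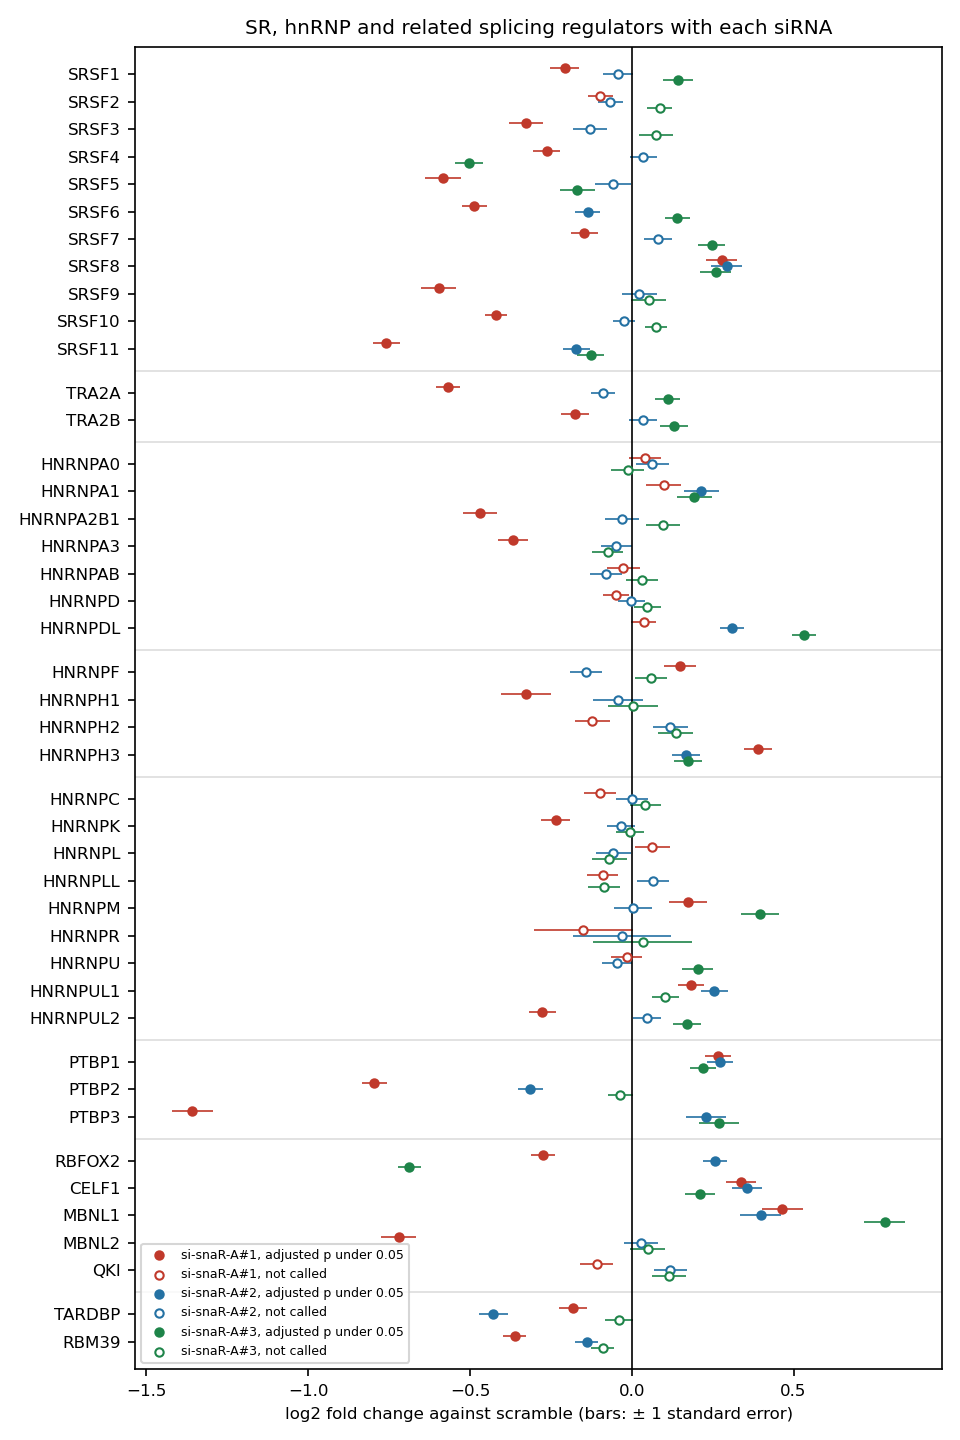
Log2 fold change of each member against scramble (x axis, bars ± 1 standard error) with each of the 3 siRNAs, members grouped by family on the y axis. Filled dots passed the test, and most filled dots of siRNA #1 lie left of 0, down to -1.36 for PTBP3.

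For the mean over siRNAs set against scramble, 25 members passed, against 32.2% of all genes and 50.2% of those at 20 CPM or more. 9 were higher, against 15.6%, and 16 lower, against 16.6%. The largest rise in this mean was that of MBNL1 (log2 fold change 0.55 ± 0.05, SE) and the largest fall that of PTBP2 (-0.38 ± 0.03). No member passed a 1.5-fold change in the mean.

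5 members, CELF1, HNRNPH3, MBNL1, PTBP1 and SRSF8, were called higher with all 3 siRNAs, where 5.16% of all genes were, and 1 member, SRSF11, was called lower with all 3, where 2.84% were. In all 9 siRNA libraries these 5 and HNRNPUL1 lay above every scramble library, as 6.62% of all genes did. SRSF11 and RBM39 lay below in all 9, as 5.5% of all genes did. HNRNPA0, HNRNPAB, HNRNPC, HNRNPD, HNRNPH2, HNRNPL, HNRNPLL, HNRNPR, QKI and SRSF2 were called with none of the 3. The share of all genes called with none was not computed, so nothing is read from this list. Of all genes, 45.2% were called with siRNA #1, 25.8% with siRNA #2 and 29.4% with siRNA #3.

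The PTB proteins bind pyrimidine-rich RNA and repress exons. PTBP1 is the form of most dividing cells, PTBP2 is the form of neurons and PTBP3 was first described in blood cells. PTBP1 lies at ENSG00000011304, chr19:797075-812327, + strand (hg38), PTBP2 at ENSG00000117569, chr1:96721665-96823738, + strand and PTBP3 at ENSG00000119314, chr9:112217716-112333664, - strand. PTBP1 stood at 426, 439 and 457 CPM in scramble, 543, 535 and 512 CPM with siRNA #1, 543, 532 and 520.2 CPM with siRNA #2 and 503, 509 and 527 CPM with siRNA #3. Every siRNA library was above every scramble library, and the siRNA groups overlapped one another. In edgeR's test with Benjamini-Hochberg adjustment the log2 fold change (± SE throughout) was 0.27 ± 0.04, adjusted p = 1.3e-04 with siRNA #1, 0.27 ± 0.04, adjusted p = 3.0e-04 with siRNA #2 and 0.22 ± 0.04, adjusted p = 0.0012 with siRNA #3.

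PTBP2 stood at 68.4, 66.7 and 63.7 CPM in scramble, 38.0, 37.7 and 38.8 CPM with siRNA #1, 51.4, 54.5 and 54.05 CPM with siRNA #2 and 66.0, 64.1 and 63.8 CPM with siRNA #3. Lowest were the siRNA #1 libraries, the siRNA #2 libraries lay between, and the siRNA #3 libraries fell within the scramble range. PTBP2 fell with siRNA #1 (-0.80 ± 0.04, adjusted p = 9.0e-09) and with siRNA #2 (-0.31 ± 0.04, adjusted p = 6.4e-05), while with siRNA #3 the log2 fold change was -0.04 ± 0.04, adjusted p = 0.53. In both groups where PTBP2 fell, PTBP1 rose, and with siRNA #3 PTBP1 rose with no called change in PTBP2.

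PTBP3 stood at 162, 175 and 161 CPM in scramble, 64.0, 69.3 and 61.2 CPM with siRNA #1, 189.6, 195 and 200.1 CPM with siRNA #2 and 215, 204 and 182 CPM with siRNA #3. The siRNA #1 libraries lay far below all others, and the siRNA #2 and siRNA #3 libraries overlapped each other and lay above scramble. PTBP3 had the largest fall of any member with siRNA #1 (-1.36 ± 0.06, adjusted p = 7.2e-09). It rose with siRNA #2 (0.23 ± 0.06, adjusted p = 0.016) and with siRNA #3 (0.27 ± 0.06, adjusted p = 0.0057). The rise with siRNA #2 was called in 17 of 20 alternative settings, and not without scramble replicates 1 or 3 or siRNA #2 replicate 3, with log2 fold changes of 0.21 to 0.23 and adjusted p = 0.05 to 0.062.

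**Figure D3:**
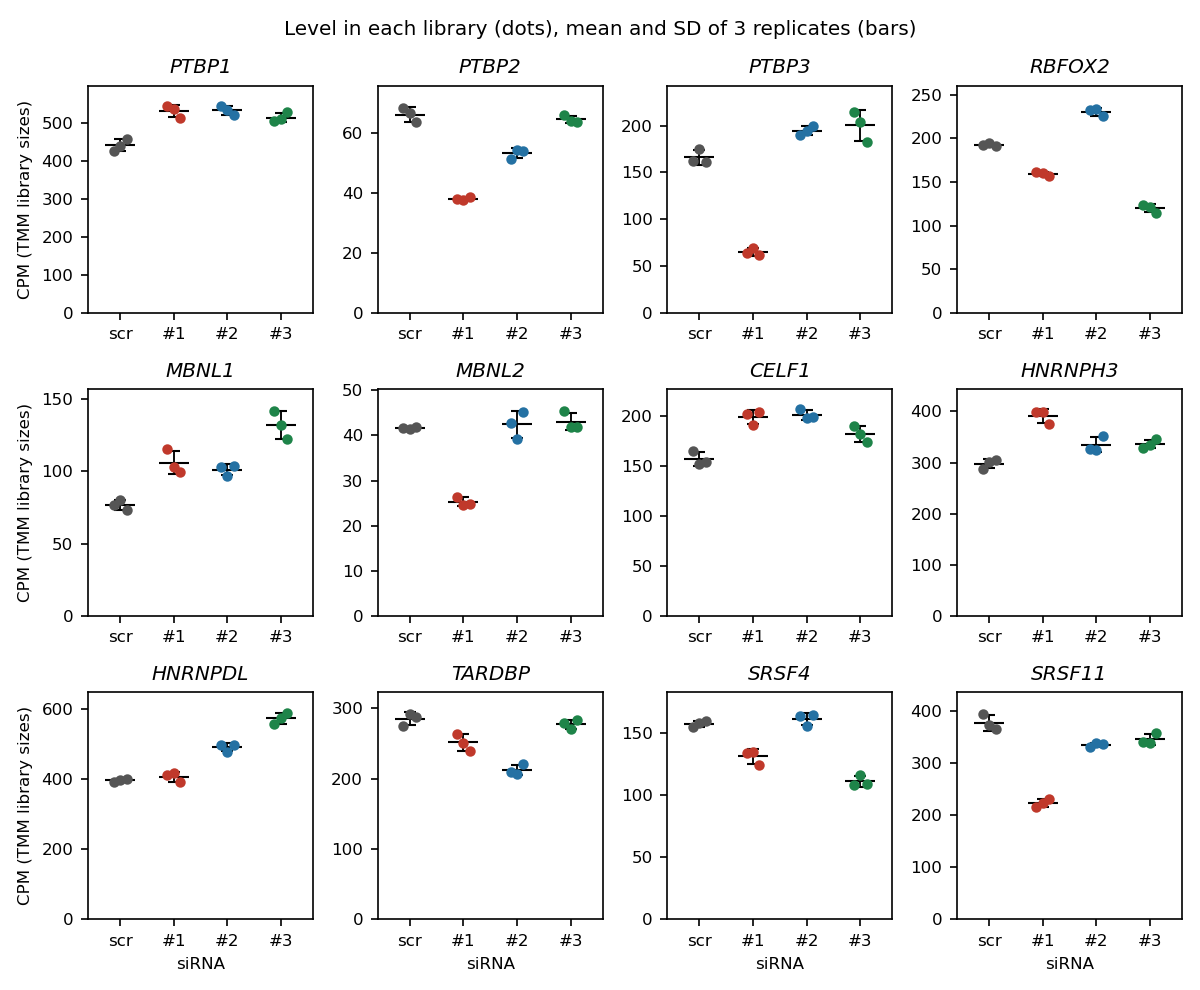
CPM of 12 members in each library (y axis, linear from 0) for scramble (scr) and the siRNAs #1, #2 and #3, with dots for libraries and bars for the mean and SD of 3 replicates. PTBP3 with #1 and RBFOX2 with #3 stand clear of the other groups, and all siRNA libraries of PTBP1, CELF1, HNRNPH3 and MBNL1 lie above scramble.

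Of the 5 RBFOX, CELF, MBNL and QKI genes, 2 rose and 2 fell with siRNA #1, against 21.9% and 23.3% of all genes. With siRNA #2 3 rose, against 13.7%, and with siRNA #3 2 rose and 1 fell, against 16.5% and 13.0%. QKI did not pass with any. MBNL1 and MBNL2 are muscleblind proteins, which bind GC-centered words such as TGCT and are sequestered by expanded CUG repeats in myotonic dystrophy. MBNL1 is ENSG00000152601, chr3:152243828-152465780, + strand and MBNL2 is ENSG00000139793, chr13:97221434-97394120, + strand (hg38). MBNL1 stood at 76.6, 79.9 and 73.5 CPM in scramble, 115, 103 and 99.7 CPM with siRNA #1, 103, 96.7 and 104 CPM with siRNA #2 and 142, 132 and 122 CPM with siRNA #3. All siRNA libraries were above scramble, and the siRNA #3 libraries were above all others. MBNL1 was the largest rise of any member with each siRNA, at 0.47 ± 0.06, adjusted p = 5.7e-05 with siRNA #1, 0.40 ± 0.06, adjusted p = 5.2e-04 with siRNA #2 and 0.78 ± 0.06, adjusted p = 2.2e-06 with siRNA #3.

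MBNL2 stood at 41.5, 41.5 and 41.9 CPM in scramble, 26.4, 24.6 and 24.8 CPM with siRNA #1, 42.8, 39.3 and 45.3 CPM with siRNA #2 and 45.3, 41.9 and 41.9 CPM with siRNA #3. All libraries but those of siRNA #1, which were lower, lay close together. MBNL2 fell with siRNA #1 (-0.72 ± 0.05, adjusted p = 3.2e-07), and its log2 fold change was 0.03 ± 0.05, adjusted p = 0.76 with siRNA #2 and 0.05 ± 0.05, adjusted p = 0.53 with siRNA #3. The paralogs thus went in opposite directions with siRNA #1.

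RBFOX2 binds TGCATG in introns and sets many exons of epithelial, muscle and neural cells (ENSG00000100320, chr22:35738736-36028824, - strand, hg38). RBFOX2 stood at 192, 195 and 192 CPM in scramble, 162, 160.3 and 157 CPM with siRNA #1, 233, 233 and 226 CPM with siRNA #2 and 123, 122 and 115 CPM with siRNA #3. None of the 4 groups overlapped, with siRNA #3 lowest and siRNA #2 highest. RBFOX2 fell with siRNA #1 (-0.27 ± 0.04, adjusted p = 4.0e-05) and further with siRNA #3 (-0.69 ± 0.04, adjusted p = 7.7e-08), and rose with siRNA #2 (0.26 ± 0.04, adjusted p = 1.9e-04).

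CELF1 binds GU-rich RNA and often opposes MBNL proteins on the same exons. CELF1 stood at 165, 152 and 154 CPM in scramble, 202, 191 and 204 CPM with siRNA #1, 207, 198 and 199 CPM with siRNA #2 and 189.8, 182 and 174 CPM with siRNA #3. Every siRNA library was above scramble. CELF1 rose with siRNA #1 (0.34 ± 0.05, adjusted p = 5.6e-05), siRNA #2 (0.36 ± 0.05, adjusted p = 1.0e-04) and siRNA #3 (0.21 ± 0.05, adjusted p = 0.0039). QKI, a STAR-family protein that promotes circular RNA formation, had log2 fold changes between -0.11 and 0.12. An exon of CELF1 overlaps exons of other genes in the annotation, as is so for 21 members, and use of strand in the counting is not stated. Averaged over libraries, without TMM normalization, the genes that overlap CELF1 summed to 2.78 CPM. The largest such sums were 469 CPM for HNRNPA2B1, 83.4 for SRSF9, 67.2 for HNRNPA3, 48.3 for SRSF1, 40.2 for HNRNPUL2 and 30.7 for HNRNPH3. Their part in the members' changes was not tested.

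Of the 11 SR protein genes, 9 fell and 1 rose with siRNA #1, with a median log2 fold change of -0.33, where 23.3% of all genes fell and 21.9% rose. With siRNA #2, 1 rose and 2 fell (median -0.04), against 13.7% and 12.1% of all genes, and with siRNA #3, 4 rose and 3 fell (median 0.08), against 16.5% and 13.0%. With the GC and length trend removed, 7 fell and 1 rose with siRNA #1 and the median was -0.27. It was then 3 fell and 1 rose with siRNA #2 (median -0.08), and 3 fell and 2 rose with siRNA #3 (median 0.04).

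SRSF11, a regulator also known as SRp54, was the only SR gene lower with all 3. SRSF11 stood at 395, 373 and 365 CPM in scramble, 215, 223 and 232 CPM with siRNA #1, 331, 339 and 336 CPM with siRNA #2 and 342, 339 and 358 CPM with siRNA #3. All siRNA libraries lay below scramble, the siRNA #1 libraries furthest. The log2 fold change was -0.76 ± 0.04, adjusted p = 2.4e-08 with siRNA #1, -0.17 ± 0.04, adjusted p = 0.0088 with siRNA #2 and -0.13 ± 0.04, adjusted p = 0.037 with siRNA #3. The last was called in 10 of 20 alternative settings, and not without scramble replicates 1 or 2, siRNA #2 replicates 1, 2 or 3 or siRNA #3 replicates 1 or 2, with log2 fold changes of -0.13 to -0.09 and adjusted p = 0.057 to 0.16, nor with RLE scaling (-0.11, adjusted p = 0.057), with no filter (-0.12, adjusted p = 0.13) or with the replicate block (-0.13, adjusted p = 0.061).

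SRSF8, an expressed retrocopy related to SRSF2, went the other way. SRSF8 stood at 40.9, 38.4 and 37.3 CPM in scramble, 49.0, 46.9 and 45.5 CPM with siRNA #1, 47.3, 47.9 and 47.7 CPM with siRNA #2 and 43.8, 47.3 and 48.4 CPM with siRNA #3. All siRNA libraries were above scramble and the siRNA groups overlapped. It rose by 0.28 ± 0.05, adjusted p = 3.7e-04 with siRNA #1, 0.29 ± 0.05, adjusted p = 5.9e-04 with siRNA #2 and 0.26 ± 0.05, adjusted p = 0.0013 with siRNA #3.

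SRSF4, SRSF5 and SRSF6 are related SR proteins with a pair of RNA recognition motifs each. SRSF4 stood at 155, 158 and 159.8 CPM in scramble, 135, 135 and 125 CPM with siRNA #1, 164, 156 and 165 CPM with siRNA #2 and 108, 116 and 109 CPM with siRNA #3. The siRNA #2 libraries overlapped scramble, and the siRNA #3 libraries were below those of siRNA #1. SRSF4 fell with siRNA #1 (-0.26 ± 0.04, adjusted p = 2.3e-04) and siRNA #3 (-0.50 ± 0.04, adjusted p = 3.0e-06), with 0.04 ± 0.04, adjusted p = 0.6 for siRNA #2.

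SRSF5 stood at 226, 221 and 207 CPM in scramble, 137, 145 and 155 CPM with siRNA #1, 206, 211 and 211 CPM with siRNA #2 and 185, 189 and 208 CPM with siRNA #3. Those of siRNA #1 were the lowest, and those of siRNA #2 and siRNA #3 overlapped scramble. SRSF5 fell with siRNA #1 (-0.58 ± 0.05, adjusted p = 2.3e-06) and with siRNA #3 (-0.17 ± 0.05, adjusted p = 0.035). The latter was called in 13 of 20 alternative settings, and not without scramble replicates 1 or 2, siRNA #2 replicates 1, 2 or 3 or siRNA #3 replicates 1 or 2, with log2 fold changes of -0.17 to -0.13 and adjusted p = 0.052 to 0.13. With siRNA #2 the value was -0.06 ± 0.05, adjusted p = 0.49.

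SRSF6 stood at 201, 199 and 191 CPM in scramble, 143, 138 and 141 CPM with siRNA #1, 180.1, 178 and 179 CPM with siRNA #2 and 213, 210.3 and 228 CPM with siRNA #3. No groups overlapped, in the order siRNA #1, siRNA #2, scramble, siRNA #3. SRSF6 fell with siRNA #1 (-0.49 ± 0.04, adjusted p = 5.2e-07) and siRNA #2 (-0.14 ± 0.04, adjusted p = 0.019) and rose with siRNA #3 (0.14 ± 0.04, adjusted p = 0.015). The fall with siRNA #2 was called in 14 of 20 alternative settings, and not without scramble replicates 1 or 2 or siRNA #2 replicates 1, 2 or 3, with log2 fold changes of -0.14 to -0.12 and adjusted p = 0.056 to 0.075, nor with no filter (-0.13, adjusted p = 0.076). The rise was called in 17 of 20 alternative settings, and not without siRNA #3 replicate 3, with a log2 fold change of 0.10 and adjusted p = 0.056, nor with upper quartile scaling (0.087, adjusted p = 0.1) or with the GC and length trend removed (0.068, adjusted p = 0.22).

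SRSF1, the founding SR protein, and SRSF7, which also links splicing to mRNA export, fell with siRNA #1 and rose with siRNA #3. SRSF1 stood at 415, 412 and 399.7 CPM in scramble, 363, 338 and 362 CPM with siRNA #1, 408, 389 and 394 CPM with siRNA #2 and 446, 429.9 and 478 CPM with siRNA #3. Scramble lay above siRNA #1, overlapped siRNA #2 and lay below siRNA #3. The log2 fold change was -0.21 ± 0.05, adjusted p = 0.0024 with siRNA #1, -0.04 ± 0.05, adjusted p = 0.56 with siRNA #2 and 0.14 ± 0.05, adjusted p = 0.033 with siRNA #3. The last was called in 11 of 20 alternative settings, and not without scramble replicates 1, 2 or 3 or siRNA #3 replicates 1 or 3, with log2 fold changes of 0.10 to 0.15 and adjusted p = 0.056 to 0.13, nor with upper quartile scaling (0.09, adjusted p = 0.17), with no filter (0.15, adjusted p = 0.077), with a minimum mean of 1 CPM (0.11, adjusted p = 0.057) or with the GC and length trend removed (0.059, adjusted p = 0.42).

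SRSF7 stood at 211, 217 and 221 CPM in scramble, 199, 195 and 191 CPM with siRNA #1, 226, 229.7 and 229.6 CPM with siRNA #2 and 240.0, 259 and 269.7 CPM with siRNA #3. The groups did not overlap, in the order siRNA #1, scramble, siRNA #2, siRNA #3. SRSF7 fell by 0.15 on the log2 scale with siRNA #1 (SE 0.04, edgeR adjusted p = 0.014) and rose with siRNA #3 (0.25 ± 0.04, adjusted p = 8.6e-04), with 0.08 ± 0.04, adjusted p = 0.2 for siRNA #2. Its fall was called in 18 of 20 alternative settings, and not without scramble replicate 3, with a log2 fold change of -0.13 and adjusted p = 0.057, nor with the GC and length trend removed (0.023, adjusted p = 0.65). With the GC and length trend removed the value of SRSF1 with siRNA #1 was -0.08 (adjusted p = 0.23).

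The other SR genes that changed did so with siRNA #1 alone among the comparisons with scramble. SRSF9 fell from a mean of 223 to 148 CPM (-0.60 ± 0.05, adjusted p = 1.7e-06), SRSF10 from 248 to 185 CPM (-0.42 ± 0.03, adjusted p = 6.4e-07) and SRSF3 from 464 to 369 CPM (-0.33 ± 0.05, adjusted p = 2.4e-04). SRSF3 also passed in the mean of the 3 siRNAs, a result that was called in 8 of 19 alternative settings, and not without scramble replicates 1, 2 or 3, siRNA #1 replicate 2, siRNA #2 replicates 2 or 3 or siRNA #3 replicates 1 or 2, with log2 fold changes of -0.13 to -0.11 and adjusted p = 0.056 to 0.12, nor with RLE scaling (-0.11, adjusted p = 0.068), with no filter (-0.13, adjusted p = 0.074) or with the replicate block (-0.13, adjusted p = 0.06). SRSF2 missed the threshold with siRNA #1 (-0.10 ± 0.04, adjusted p = 0.061).

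TRA2A and TRA2B bind GAA-rich enhancers, and TRA2B holds back its own protein through an exon with stop codons. TRA2A stood at 119.7, 116 and 114 CPM in scramble, 77.0, 77.6 and 81.6 CPM with siRNA #1, 109, 107 and 114 CPM with siRNA #2 and 128, 125 and 125 CPM with siRNA #3. The siRNA #1 libraries were far below scramble, the siRNA #2 libraries just below it and the siRNA #3 libraries just above it. TRA2A fell with siRNA #1 (-0.57 ± 0.04, adjusted p = 1.0e-07), had -0.09 ± 0.04, adjusted p = 0.11 with siRNA #2 and rose with siRNA #3 (0.11 ± 0.04, adjusted p = 0.041). This rise was called in 8 of 20 alternative settings, and not without scramble replicates 2 or 3, siRNA #1 replicate 2, siRNA #2 replicate 1 or siRNA #3 replicates 1, 2 or 3, with log2 fold changes of 0.10 to 0.12 and adjusted p = 0.051 to 0.11, nor with upper quartile scaling (0.057, adjusted p = 0.32), with no filter (0.12, adjusted p = 0.1), with a minimum mean of 1 CPM (0.083, adjusted p = 0.12), with the replicate block (0.11, adjusted p = 0.055) or with the GC and length trend removed (0.05, adjusted p = 0.44).

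TRA2B stood at 185, 196 and 195 CPM in scramble, 177, 171 and 161 CPM with siRNA #1, 198, 190.2 and 201 CPM with siRNA #2 and 209.9, 205 and 215 CPM with siRNA #3. Again siRNA #1 was below scramble, siRNA #2 overlapped it and siRNA #3 was above. TRA2B fell with siRNA #1 (-0.18 ± 0.04, adjusted p = 0.0047) and rose with siRNA #3 (0.13 ± 0.04, adjusted p = 0.037), with 0.04 ± 0.04, adjusted p = 0.61 for siRNA #2. The rise was called in 8 of 20 alternative settings, and not without scramble replicates 1, 2 or 3, siRNA #1 replicate 2, siRNA #2 replicate 1 or siRNA #3 replicates 1, 2 or 3, with log2 fold changes of 0.10 to 0.15 and adjusted p = 0.051 to 0.14, nor with upper quartile scaling (0.077, adjusted p = 0.14), with no filter (0.14, adjusted p = 0.078), with the replicate block (0.13, adjusted p = 0.062) or with the GC and length trend removed (0.062, adjusted p = 0.17). With the trend on GC content and length removed, the value of TRA2B with siRNA #1 was -0.06 (adjusted p = 0.17).

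Among the 7 hnRNP A/B and D genes, 2 fell with siRNA #1, against 23.3% of all genes, 2 rose with siRNA #2, against 13.7%, and 2 rose with siRNA #3, against 16.5%. HNRNPDL, a relative of HNRNPD known to lower its own transcript through splicing, had the largest rise. HNRNPDL stood at 389.9, 397 and 399 CPM in scramble, 410.0, 417 and 390.3 CPM with siRNA #1, 496, 477 and 497 CPM with siRNA #2 and 555, 573 and 588 CPM with siRNA #3. The siRNA #1 libraries overlapped scramble, the siRNA #2 libraries were above both and the siRNA #3 libraries highest. HNRNPDL rose with siRNA #2 (0.31 ± 0.04, adjusted p = 7.9e-05) and siRNA #3 (0.53 ± 0.04, adjusted p = 8.4e-07), against 0.04 ± 0.04, adjusted p = 0.48 with siRNA #1.

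HNRNPA1 rose from a mean of 3249 CPM in scramble to 3771 CPM with siRNA #2 (0.21 ± 0.05, adjusted p = 0.011) and 3714 CPM with siRNA #3 (0.19 ± 0.05, adjusted p = 0.017). The latter was called in 16 of 20 alternative settings, and not without scramble replicate 1 or siRNA #3 replicates 2 or 3, with log2 fold changes of 0.16 to 0.19 and adjusted p = 0.05 to 0.075, nor with no filter (0.20, adjusted p = 0.083). Its close relatives HNRNPA2B1 and HNRNPA3 instead fell with siRNA #1, from 2264 to 1636 CPM (-0.47 ± 0.05, adjusted p = 1.0e-05) and from 486 to 377 CPM (-0.37 ± 0.05, adjusted p = 3.4e-05). The pseudogenes named after members held little of their signal, at most 0.252% of the parent's level, for HNRNPL. HNRNPA0, HNRNPAB and HNRNPD stayed between -0.08 and 0.06 on the log2 scale with any siRNA, and none passed.

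The hnRNP F/H proteins bind runs of G. HNRNPH3 stood at 287, 302 and 305 CPM in scramble, 399, 398 and 375 CPM with siRNA #1, 327, 325 and 352 CPM with siRNA #2 and 329, 335 and 345 CPM with siRNA #3. All siRNA libraries were above scramble, and those of siRNA #1 above all others. HNRNPH3 rose with siRNA #1 (0.39 ± 0.04, adjusted p = 1.1e-05), siRNA #2 (0.17 ± 0.04, adjusted p = 0.014) and siRNA #3 (0.17 ± 0.04, adjusted p = 0.0093). The rise with siRNA #2 was called in 18 of 20 alternative settings, and not without scramble replicate 1 or siRNA #2 replicate 3, with log2 fold changes of 0.13 to 0.14 and adjusted p = 0.06 to 0.071. HNRNPH1, which controls its own splicing, fell with siRNA #1 from 765 to 610.0 CPM (-0.33 ± 0.08, adjusted p = 0.0036), while HNRNPF rose from 302 to 335 CPM (0.15 ± 0.05, adjusted p = 0.026), a result that was called in 16 of 20 alternative settings, and not without scramble replicate 1 or siRNA #1 replicates 1 or 2, with log2 fold changes of 0.11 to 0.13 and adjusted p = 0.089 to 0.11, nor with no filter (0.14, adjusted p = 0.071). HNRNPH2 was called with no siRNA against scramble.

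Of the 9 hnRNP C, K, L, M, R and U genes, 2 rose and 2 fell with siRNA #1, against 21.9% and 23.3% of all genes. With siRNA #2 1 rose, against 13.7%, and with siRNA #3 3 rose, against 16.5%. HNRNPM acts on exons in epithelial-mesenchymal transition. HNRNPM stood at 216, 230.0 and 218 CPM in scramble, 263, 247 and 239.8 CPM with siRNA #1, 234, 206 and 226 CPM with siRNA #2 and 312, 278 and 284 CPM with siRNA #3. The siRNA #3 libraries were above all others, those of siRNA #1 above scramble, and those of siRNA #2 overlapped it. HNRNPM rose with siRNA #3 (0.40 ± 0.06, adjusted p = 2.5e-04) and siRNA #1 (0.17 ± 0.06, adjusted p = 0.028), with 0.00 ± 0.06, adjusted p = 0.98 for siRNA #2. The rise with siRNA #1 was called in 15 of 20 alternative settings, and not without scramble replicates 1 or 3 or siRNA #1 replicates 1 or 2, with log2 fold changes of 0.13 to 0.18 and adjusted p = 0.054 to 0.11, nor with the GC and length trend removed (0.14, adjusted p = 0.07).

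HNRNPUL1 and HNRNPUL2 are relatives of the nuclear scaffold protein HNRNPU that also take part in DNA repair. HNRNPUL2 stood at 256, 260.3 and 244 CPM in scramble, 217, 211 and 200.3 CPM with siRNA #1, 261, 259 and 266 CPM with siRNA #2 and 298, 282 and 276 CPM with siRNA #3. Scramble overlapped siRNA #2 alone, with siRNA #1 below it and siRNA #3 above. HNRNPUL2 fell with siRNA #1 (-0.28 ± 0.04, adjusted p = 1.6e-04) and rose with siRNA #3 (0.17 ± 0.04, adjusted p = 0.009), with 0.05 ± 0.04, adjusted p = 0.47 for siRNA #2. HNRNPUL1 rose with siRNA #1 (0.18 ± 0.04, adjusted p = 0.0025) and siRNA #2 (0.25 ± 0.04, adjusted p = 5.4e-04), and with siRNA #3 it had 0.10 ± 0.04, adjusted p = 0.075. HNRNPU rose with siRNA #3 (0.20 ± 0.05, adjusted p = 0.0055) and HNRNPK fell with siRNA #1 (-0.24 ± 0.04, adjusted p = 6.9e-04).

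TARDBP encodes TDP-43, which keeps cryptic exons out of mRNA and lowers its own transcript. TARDBP stood at 275, 292 and 288 CPM in scramble, 264, 251 and 239.5 CPM with siRNA #1, 209, 207 and 220.2 CPM with siRNA #2 and 279, 271 and 283 CPM with siRNA #3. The siRNA #2 libraries were the lowest, the siRNA #1 libraries lay between, and the siRNA #3 libraries overlapped scramble. TARDBP fell with siRNA #2 (-0.43 ± 0.04, adjusted p = 1.8e-05) and siRNA #1 (-0.18 ± 0.04, adjusted p = 0.0041), against -0.04 ± 0.04, adjusted p = 0.53 with siRNA #3. With the GC and length trend removed the value of TARDBP with siRNA #1 was -0.06 (adjusted p = 0.19).

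RBM39 is related to the splicing factor U2AF2 and binds near branch points. RBM39 stood at 258, 261 and 251 CPM in scramble, 199, 196 and 204 CPM with siRNA #1, 233, 228 and 238 CPM with siRNA #2 and 238, 237 and 249 CPM with siRNA #3. All siRNA libraries were below scramble. RBM39 fell with siRNA #1 (-0.36 ± 0.04, adjusted p = 3.6e-06) and siRNA #2 (-0.14 ± 0.04, adjusted p = 0.012), and had -0.09 ± 0.04, adjusted p = 0.08 with siRNA #3. The fall with siRNA #2 was called in 17 of 20 alternative settings, and not without scramble replicate 2 or siRNA #2 replicate 2, with log2 fold changes of -0.13 to -0.12 and adjusted p = 0.055 to 0.062, nor with no filter (-0.14, adjusted p = 0.067).

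Compared directly, siRNA #1 and siRNA #2 differed in 29 members, where 46.7% of all genes and 65.1% of those at 20 CPM or more differed. 25 of the 43 members were lower with siRNA #1, against 23.0% of all genes, and 4 higher, against 23.7%. With the GC and length trend removed 17 were lower and 7 higher. siRNA #1 and siRNA #3 differed in 32 members, against 48.6% and 67.3%, with 28 lower in siRNA #1, against 24.8%, and 4 higher, against 23.8%. This split was 26 and 8 with upper quartile scaling and 19 and 8 with the trend removed. siRNA #2 and siRNA #3 differed in 17 members, against 15.6% and 26.3%, with 13 lower in siRNA #2, against 9.03%, and 4 higher, against 6.52%. The 4 higher with siRNA #2 were RBFOX2, SRSF4, CELF1 and HNRNPUL1. For CELF1 the difference was called in 12 of 20 alternative settings, and not without scramble replicate 2, siRNA #1 replicate 1, siRNA #2 replicates 1, 2 or 3 or siRNA #3 replicates 2 or 3, with log2 fold changes of 0.11 to 0.16 and adjusted p = 0.06 to 0.17, nor with no filter (0.15, adjusted p = 0.09). For HNRNPUL1 it was called in 13 of 20 alternative settings, and not without siRNA #2 replicates 1, 2 or 3 or siRNA #3 replicates 1 or 2, with log2 fold changes of 0.13 to 0.16 and adjusted p = 0.055 to 0.1, nor with no filter (0.15, adjusted p = 0.1) or with the replicate block (0.15, adjusted p = 0.051). Without siRNA #2 replicate 2, siRNA #2 replicate 3 or siRNA #3 replicate 3, only 11, 10 and 11 members passed in this comparison.

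siRNA #1 differed from both other siRNAs, which did not differ from each other, in 16 members, PTBP3, MBNL2, SRSF9 and HNRNPA2B1 among them, where 30.0% of all genes did so. With the GC and length trend removed, HNRNPA3, HNRNPH1, HNRNPH2, HNRNPK, QKI and TRA2B of these lost the call between siRNA #1 and siRNA #2. HNRNPUL2 then gained a call between siRNA #2 and siRNA #3. All 3 siRNAs differed from one another in 11 members, HNRNPDL, HNRNPM, PTBP2, RBFOX2, SRSF1, SRSF3, SRSF4, SRSF6, SRSF7, TARDBP and TRA2A, where 7.25% of all genes did. With the trend removed, HNRNPM, SRSF1, SRSF3 and SRSF7 lost the call between siRNA #1 and siRNA #2. TARDBP lost the call between siRNA #1 and siRNA #3. 8 members, HNRNPUL2, PTBP3, RBFOX2, SRSF1, SRSF6, SRSF7, TRA2A and TRA2B, were called in opposite directions with a pair of siRNAs, against 8.41% of all genes.

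Balance between paralogs was read as the ratio of their CPM within a library, which a scaling factor per library cannot alter. A trend on GC content can alter it, and GC content was 57.7% for PTBP1 and 37.2% for PTBP2. With the GC and length trend removed, PTBP1 with siRNA #1 against siRNA #2 moved from -0.0054 to -0.12 on the log2 scale. PTBP2 moved from -0.48 to -0.22 in that comparison. Ratios with the trend removed are not given, so those below hold any such trend. The ratio of PTBP1 to PTBP2 was 6.66 ± 0.479 (SD, n = 3) in scramble, 13.9 ± 0.607 with siRNA #1, 9.99 ± 0.506 with siRNA #2 and 7.94 ± 0.317 with siRNA #3. The ratio of MBNL1 to MBNL2 was 1.84 ± 0.0857, 4.18 ± 0.163, 2.38 ± 0.0867 and 3.06 ± 0.129 in the same order. For both pairs the scramble libraries lay below all siRNA libraries, and the 4 groups did not overlap. The ratio of HNRNPDL to HNRNPD was 0.751 ± 0.0126 in scramble and 1.05 ± 0.0239 with siRNA #3, where it was highest. The ratio of SRSF4 to SRSF6 was 0.801 ± 0.0327 in scramble and 0.514 ± 0.0376 with siRNA #3, but 0.936 ± 0.0505 with siRNA #1. Over 7 pairs of genes there were 21 such comparisons with scramble. In the two-sided exact permutation test 17 reached p = 0.1 (Benjamini-Hochberg adjusted p = 0.12), the smallest that 3 libraries against 3 allow. Among them were all 12 of the 4 pairs above, the only pairs in which every comparison reached it. PTBP1 to PTBP3 had exact permutation p = 0.6 with siRNA #2 and exact permutation p = 0.7 with siRNA #3. With siRNA #3, TRA2A to TRA2B had exact permutation p = 0.8 and HNRNPH3 to HNRNPH1 had exact permutation p = 0.2.

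**Figure D4:**
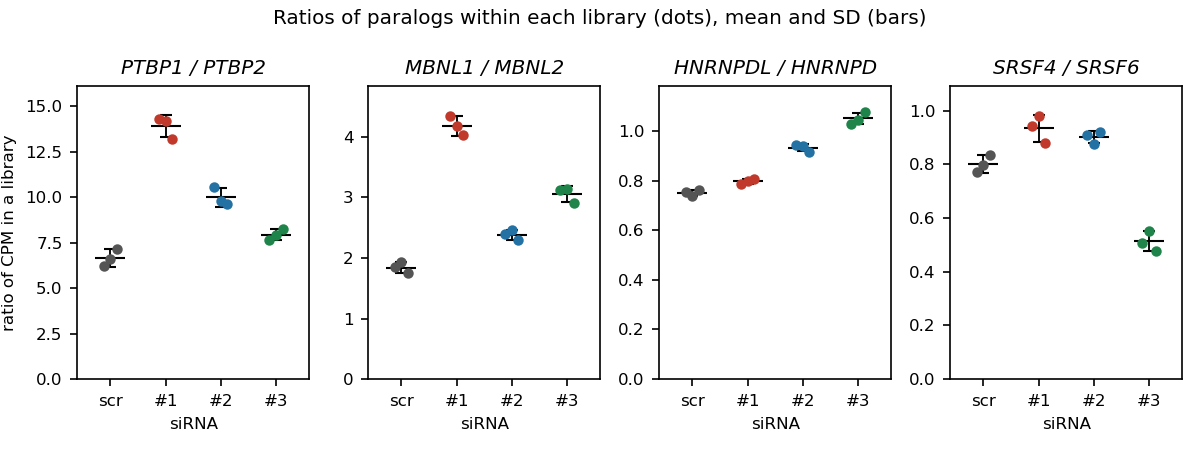
Ratio of CPM of paralog pairs within each library (y axis, linear from 0) for scramble (scr) and siRNAs #1, #2 and #3, with dots for libraries and bars for the mean and SD of 3 replicates. PTBP1 over PTBP2 runs from 6.66 in scramble to 13.9 with #1, and SRSF4 over SRSF6 is lowest with #3 at 0.514.

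In GENCODE release 44, 34 of the 43 members, or 79.1%, have a transcript annotated as a target of NMD, against 45.4% of the 15075 protein-coding genes tested. Of these 34, 20 fell and 4 rose with siRNA #1 (median log2 fold change -0.20), 5 fell and 6 rose with siRNA #2 (median -0.03) and 4 fell and 11 rose with siRNA #3 (median 0.06). Of the 9 without one, which include CELF1, MBNL1, HNRNPH3 and PTBP3, 2 fell and 4 rose with siRNA #1 (median 0.04), none fell and 4 rose with siRNA #2 (median 0.12) and none fell and 5 rose with siRNA #3 (median 0.17). Over all protein-coding genes tested, 30.2% of those with such a transcript fell and 23.8% rose with siRNA #1, 13.9% fell and 20.1% rose with siRNA #2 and 14.3% fell and 24.0% rose with siRNA #3. Of those without one, 27.8% fell and 25.8% rose with siRNA #1, 16.1% fell and 17.6% rose with siRNA #2 and 14.2% fell and 21.8% rose with siRNA #3. Nothing particular to NMD is read from the members' counts. The counts sum all transcripts of a gene, so coding and NMD transcripts were not told apart.

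Members are also low in GC, with a median of 41.6% in the canonical transcript and a range of 35.1% to 57.7%, against 48.7% for protein-coding genes tested. Across 7952 genes at 20 CPM or more, which share the same libraries, the log2 fold change with siRNA #1 correlated with GC content at a Pearson r of 0.34, against -0.06 with siRNA #2 and -0.09 with siRNA #3. With the GC and length trend removed, 17 members fell and 8 rose with siRNA #1. SRSF1, SRSF7, TRA2B, HNRNPH1 and TARDBP no longer passed as falls, and PTBP3 (-1.21), PTBP2 (-0.59), SRSF11 (-0.61), SRSF9 (-0.58) and MBNL2 (-0.53) did.

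A list of 37 other splicing regulators, chosen by name, gave 37 tested gene IDs for 36 symbols, since MATR3 has 2 IDs and ESRP1 was too low to test. 9 rose and 12 fell with siRNA #1, 8 rose and 9 fell with siRNA #2, and 10 rose and 9 fell with siRNA #3, where 45.2%, 25.8% and 29.4% of all genes passed. In the mean of the 3 siRNAs 23 passed, 10 higher and 13 lower, against 32.2% of all genes. The largest rises in this mean were those of the epithelial regulator ESRP2 (0.54 ± 0.13, adjusted p = 0.0057), the RNA-binding protein TAF15 (0.50 ± 0.08, adjusted p = 3.8e-04) and MBNL3 (0.31 ± 0.08, adjusted p = 0.0097). Falls in this mean included those of CELF2 (-0.76 ± 0.05, adjusted p = 1.5e-07), a paralog of CELF1, and TIA1 (-0.33 ± 0.03, adjusted p = 4.0e-06), which helps U1 snRNP to bind weak splice sites. In that mean CELF2 fell while CELF1 rose, and MBNL3 rose as MBNL1 did.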

How the data were processed

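Poly(A)+ RNA, depleted of rRNA, was sequenced from 12 stranded HEK293T libraries, 3 per group. The authors trimmed reads with Trim Galore, assigned them to transcripts with Salmon on hg38 and deposited estimated counts for each Ensembl gene. Of the positive values, 0% are whole numbers, and whether they were rescaled by transcript length was not tested. Which transcriptome was used, how transcripts were summed to genes and whether strand was used are not given in the sources used here. The study calls its replicates biological and handled them on 1 day. Whether they were separate cultures is not given in the sources used here, so p-values measure the spread between samples of 1 day.

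Estimated counts were rounded, genes were kept with filterByExpr (21999 genes, at least 99.98% of counts), and all 12 libraries entered 1 model with a term per group in edgeR 4.0.16 (R 4.3.3, TMM factors 0.956 to 1.089, quasi-likelihood test, Benjamini-Hochberg adjustment over all genes tested, called at an adjusted p under 0.05). The SE of a log2 fold change is its size over the square root of F. Totals were 120.4 to 180.1 M counts, and replicates differed by more than counting error (chi-square per degree of freedom 11.9 to 56.9). Rounded Salmon estimates are not exact read counts. Symbols, lengths and exons came from GENCODE release 44, which held 58160 of 63541 IDs. The background of genes averaging 20 CPM or more was chosen after seeing the data. Scripts were tested on simulated data.

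The members and lists were chosen with earlier results of these data known. Values per library are given for the 4 largest rises and 4 largest falls called with each siRNA, for members called in 1 direction with all 3 siRNAs and not overlapping scramble, and for members called in opposite directions. Of the levels per kb, the 3 highest and 3 lowest are named. Of the other regulators, the 3 that rose most and the 3 that fell most in the mean are named, except 1 that is not reported here. Members named outside this rule were chosen after their values were seen. Alternatives were RLE and upper quartile scaling, no filter, a mean of at least 1 CPM, the edgeR exact test, DESeq2 1.42.0, a replicate block, removal of a lowess trend on GC content and length, and leaving out each of the 12 libraries. Replicate numbers did not pair the samples over all groups, though siRNA #1 and siRNA #2 libraries with the same number deviated together weakly.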

Additional observations from a re-analysis of the deposited data

Results flagged for a closer look

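For 8 members a pair of siRNAs gave calls in opposite directions against the shared scramble libraries, and the values below are the direct comparisons of each pair in edgeR's quasi-likelihood test with Benjamini-Hochberg adjustment. The pairs were picked by those opposite calls, so these comparisons add no independent support. PTBP3 was lower with siRNA #1 than with siRNA #2 (log2 difference -1.59 ± 0.06, SE, adjusted p = 2.4e-09) and than with siRNA #3 (-1.63 ± 0.06, adjusted p = 1.2e-09). RBFOX2 was lower with siRNA #1 than with siRNA #2 (-0.53 ± 0.04, adjusted p = 1.3e-07) and higher with siRNA #2 than with siRNA #3 (0.94 ± 0.04, adjusted p = 6.3e-08). SRSF6 was lower with siRNA #1 than with siRNA #3 (-0.63 ± 0.04, adjusted p = 4.8e-08) and lower with siRNA #2 than with siRNA #3 (-0.28 ± 0.04, adjusted p = 4.3e-04). The other 5 differed between siRNA #1 and siRNA #3, with TRA2A at -0.68 ± 0.04, HNRNPUL2 at -0.45 ± 0.04, SRSF7 at -0.39 ± 0.04, SRSF1 at -0.35 ± 0.05 and TRA2B at -0.31 ± 0.04. Of all genes tested, 8.41% were called in opposite directions. With the GC and length trend removed, the falls of SRSF1, SRSF7 and TRA2B with siRNA #1 and the rises of SRSF1, SRSF6, TRA2A and TRA2B with siRNA #3 were no longer called, and the value of SRSF7 with siRNA #1 turned to 0.023. The rises with siRNA #3 were called in 11 of 20 alternative settings for SRSF1, 17 of 20 for SRSF6 and 8 of 20 for TRA2A and for TRA2B.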

How the results depend on the processing

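The number of members called stayed within 1.5 times the reported count under all alternatives that kept every library, at 25 to 31 with siRNA #1, 12 to 19 with siRNA #2, 15 to 24 with siRNA #3 and 22 to 26 in the mean. Leaving out 1 library gave 28 to 31, 12 to 18, 15 to 23 and 22 to 26 in the same order. Between siRNAs it gave 27 to 30 for siRNA #1 against siRNA #2, 29 to 33 for siRNA #1 against siRNA #3 and 10 to 18 for siRNA #2 against siRNA #3, the last at 11 without siRNA #2 replicate 2, 10 without siRNA #2 replicate 3 and 11 without siRNA #3 replicate 3. For the other splicing regulators the mean gave 16 to 24.

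Of 5977 checks of single genes, 5669 kept direction and call, 185 lost the call and 78 gained one. A further 39 values that were not called changed sign, 24 of them with the GC and length trend removed and 13 with upper quartile scaling, and 4 of the 24, for HNRNPC, HNRNPLL and HNRNPD (2 comparisons), were then called. Last, 6 called values changed sign, all 6 with the GC and length trend removed, and were then 0.023 for SRSF7 with siRNA #1 against scramble, 0.031 for SRSF1, 0.0019 for SRSF3 and 0.067 for HNRNPLL with siRNA #1 against siRNA #2, and 0.054 for TARDBP and 0.074 for HNRNPC with siRNA #1 against siRNA #3. The cause was not tested.

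The replicate block gave 30, 15, 17 and 23 members called with siRNA #1, siRNA #2, siRNA #3 and in the mean, and 29, 31 and 17 between siRNAs. Taking all groups together, libraries with the same number did not deviate together (median r -0.0097 over 18 pairs, 6 over 0.1). Libraries with other numbers had a median r of -0.0099 over 36 pairs, 10 of them over 0.1. Between siRNA #1 and siRNA #2, however, r was 0.16, 0.11 and 0.17 for the same number and -0.14 to -7.0e-05 for other numbers. The cause was not tested. The edgeR exact test was not run for the mean of the 3 siRNAs. Changes under about 0.2 on the log2 scale were the ones that lost their calls most often, as with SRSF11, TRA2A and TRA2B with siRNA #3.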
